A study of Mus musculus with 6 samples.

Results

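The Hox genes were described here in skin of mouse embryos at embryonic day 16.5. Members were the probe sets of an Affymetrix mouse array whose only platform gene symbol is Hoxa, Hoxb, Hoxc or Hoxd followed by a number from 1 to 13. This gave 48 probe sets for 33 of the 39 Hox genes of the mouse, out of 45037 probe sets and 18193 genes on the array. There were 9 Hoxa, 9 Hoxb, 7 Hoxc and 8 Hoxd genes. The other 6 genes were not analysed here, and 3 probe sets annotated to several genes, at least 1 of them a Hox gene, were not used. Each gene was represented by the probe set with the highest mean signal.

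The study compared 3 skin samples of Tcfap2c mutant embryos with 3 of control embryos, 1 array per sample. Tcfap2c, now named Tfap2c, encodes the transcription factor AP-2 gamma of the surface ectoderm. The labels used here give no allele, strain, promoter of a transgene, sex, litter or pooling, and no body region from which the skin was taken. The description field of the control samples also mentions the mutation, whereas their titles, source names and the series design do not, and the series title speaks of epidermis where the samples are labelled skin. Since no label says that the samples of a group are separate litters or cultures, the p-values reflect only the scatter among these 6 arrays, which may be technical.

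Hox genes encode homeodomain transcription factors and lie in 4 clusters on separate chromosomes, where the order of the genes along the chromosome follows the order of their domains along the body axis. Genes of the same number in different clusters are paralogs. Low numbers mark hindbrain, neck and upper trunk levels, middle numbers the thorax, and high numbers the lumbar, sacral and tail levels and the distal limbs. Fibroblasts of skin keep a Hox pattern that reflects the site they came from, and some Hox genes, such as Hoxc13, are also active in hair and nail. Hox proteins bind DNA together with cofactors of the Pbx, Meis and Pknox families.

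Values are MAS5 signals, a linear intensity that the authors had scaled to the same trimmed mean on every array. A signal of one probe set was not set against that of another. Log2 differences are mutant minus control. A pseudocount of 24.48, the 20th percentile of all signals, was added before taking log2, and it understates changes of dim genes. Tests used limma over the 22518 probe sets whose mean log2 value lay above the median of all, a signal of about 114.5, and p-values were adjusted over all of them. In bulk RNA, fewer cells of a type and less RNA per cell cannot be told apart.

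The targeted gene did not separate the groups. The brightest of 3 Tfap2c probe sets read 1596, 1392 and 1247 in the samples labelled mutant and 1330, 1347 and 1193 in those labelled control, and the log2 differences of the 3 were 0.12, 0.14 and 0.01, each with a limma adjusted p of 1 and overlapping groups. Whether these probe sets lie in the mutated part of the gene is not given in the sources used here, so its signal does not check the labels, and mutant and control below mean the samples so labelled. The labelled tissue was checked by markers. All 5 keratinocyte and all 7 fibroblast markers passed the filter, with summed signals of 101200 to 139900 and 120800 to 138000 over the samples, and the 7 skeletal muscle markers also passed (46110 to 64200). Mutant sample 1 stood apart from the others, with a mean correlation to them of 0.94 against 0.961 to 0.97 for each of the rest. Its summed signal of 7 decidua and uterus markers was 52670 against 504.8 to 977 in the other samples, although Prl3c1 of that list had a signal of 2.18 there. Its summed signal of 7 smooth muscle markers was 62110 against 8024 to 10570. The highest skeletal muscle sum, 64200, was that of control sample 3, and mutant sample 3 had 52960. Of 5 cartilage markers 2 passed the filter. Their summed signal was highest in control sample 3 (1286) and mutant sample 3 (1036), then control sample 1 (990.8), with 678.8 to 697.9 in the others. The part of these tissues in the Hox signals was not tested. Of the neuron and spinal cord list, Stmn2 passed the filter and the other 4 genes did not. Median signals of the 6 arrays ran from 110.0 to 131.3.

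Of the 33 Hox genes, 18 passed the filter and were tested. These were Hoxa2, Hoxa3, Hoxa5, Hoxa7, Hoxa9, Hoxa10 and Hoxa11, then Hoxb2, Hoxb3, Hoxb4 and Hoxb6, then Hoxc4, Hoxc5, Hoxc6 and Hoxc8, and Hoxd8, Hoxd9 and Hoxd10. They included 6 of the 10 measured genes of paralog groups 1 to 4, 7 of 9 in groups 5 to 8, and 5 of 14 in groups 9 to 13. None of the 7 measured genes of groups 1, 12 and 13 passed the filter, so the tested paralog numbers ran from 2 to 11. Of the 15 genes not tested, 11 were below a signal of 114.5 in all 6 samples.

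No Hox gene passed the test between mutant and control skin. None of the 18 tested genes passed an adjusted p of 0.05 in limma, where 0.00444% of all probe sets tested did, and each of the 18 had an adjusted p of 1 after rounding. None had an unadjusted p under 0.05, against 3.42% of all probe sets tested. The signals of the mutant and control samples overlapped in all 18 genes, whereas the groups did not overlap in 8.33% of the probe sets tested. Of the 18 differences 10 were positive and 8 negative, with a median of 0.04 and a range of -0.27 to 0.79. The sign of that median turned with single samples, to -0.12 when control sample 3 was left out, and it was 0.16 when mutant sample 3 was. The median over all probe sets tested was -0.02.

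**Figure D1:**
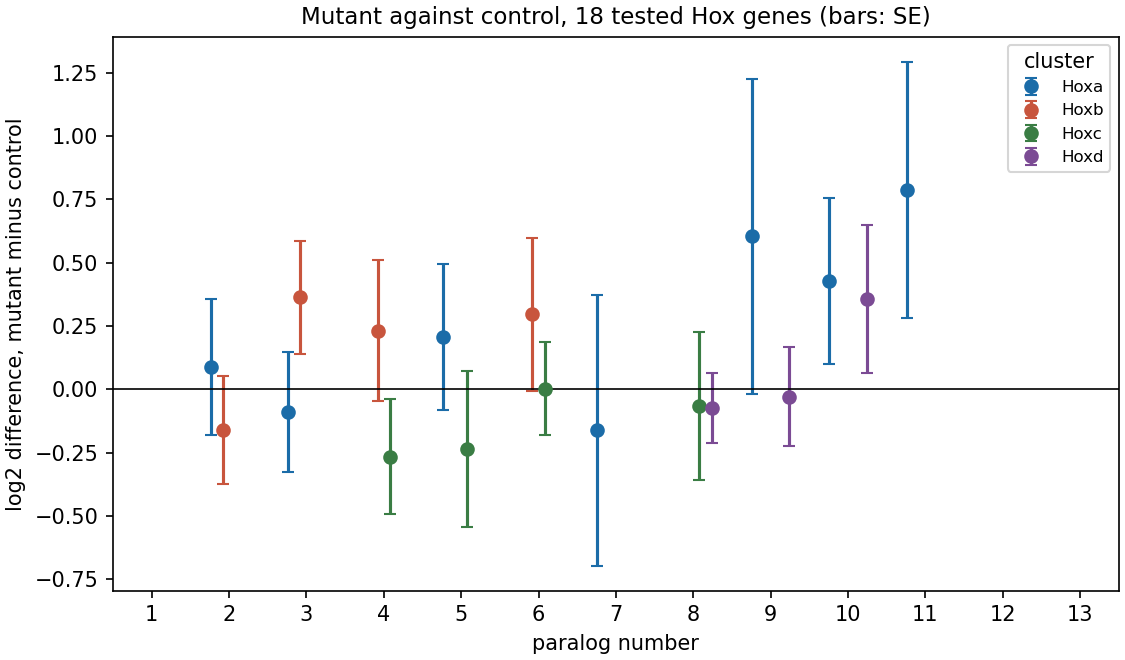
Log2 difference, mutant minus control, against paralog number for the 18 tested Hox genes, coloured by cluster, with bars for the SE of the limma fit. The differences lie between -0.27 (Hoxc4) and 0.79 (Hoxa11), with the largest bars at Hoxa9, Hoxa7 and Hoxa11.

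By cluster, the median difference was 0.21 for the 7 tested Hoxa genes, 0.26 for the 4 Hoxb genes, -0.15 for the 4 Hoxc genes and -0.03 for the 3 Hoxd genes. With 1 sample left out, the Hoxa median ran from -0.01 (control sample 3) to 0.54 (mutant sample 3), that of Hoxb from 0.14 (mutant sample 2) to 0.39 (control sample 1), that of Hoxc from -0.29 (control sample 3) to 0.02 (control sample 2) and that of Hoxd from -0.12 (control sample 3) to 0.08 (mutant sample 1), so that in this range only Hoxb kept its sign. By paralog number, it was -0.0014 for the 6 genes of groups 1 to 4, -0.07 for the 7 genes of groups 5 to 8, and 0.43 for the 5 genes of groups 9 to 13. All 3 rested in part on single samples. The median of groups 1 to 4 ran from -0.16 with mutant sample 3 left out to 0.12 with mutant sample 1 left out, and that of groups 5 to 8 from -0.13 with control sample 3 left out to 0.15 with mutant sample 3 left out. That of groups 9 to 13 kept its sign. It was 0.14 with control sample 3 left out, 0.67 with control sample 1 left out and 0.70 with mutant sample 3 left out. Leaving out sample 3 of both groups, a setting chosen after the data were seen, gave 0.12. With array weights it was 0.10.

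Several Hox genes varied widely between single samples. The range over the 6 samples had a median of 0.96 on the log2 scale for the 18 tested Hox genes and of 0.64 for all probe sets tested. The 3 widest were Hoxa9 (2.70), Hoxa11 (2.64) and Hoxa7 (2.41), each wider than the range of at least 98.9% of the probe sets tested. The narrowest was Hoxd8 (0.29). The other tested probe sets of Hoxa9 and Hoxd8 had ranges of 0.75 and 1.10. The Hox genes and all probe sets tested were not matched for signal level. A filter at the 75th percentile kept 4 of the 18 Hox genes and 11259 of the 22518 probe sets. The part of signal level in the wider ranges was not tested. The values by sample follow, and the counts of which sample was highest or lowest were chosen after those values were seen.

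**Figure D2:**
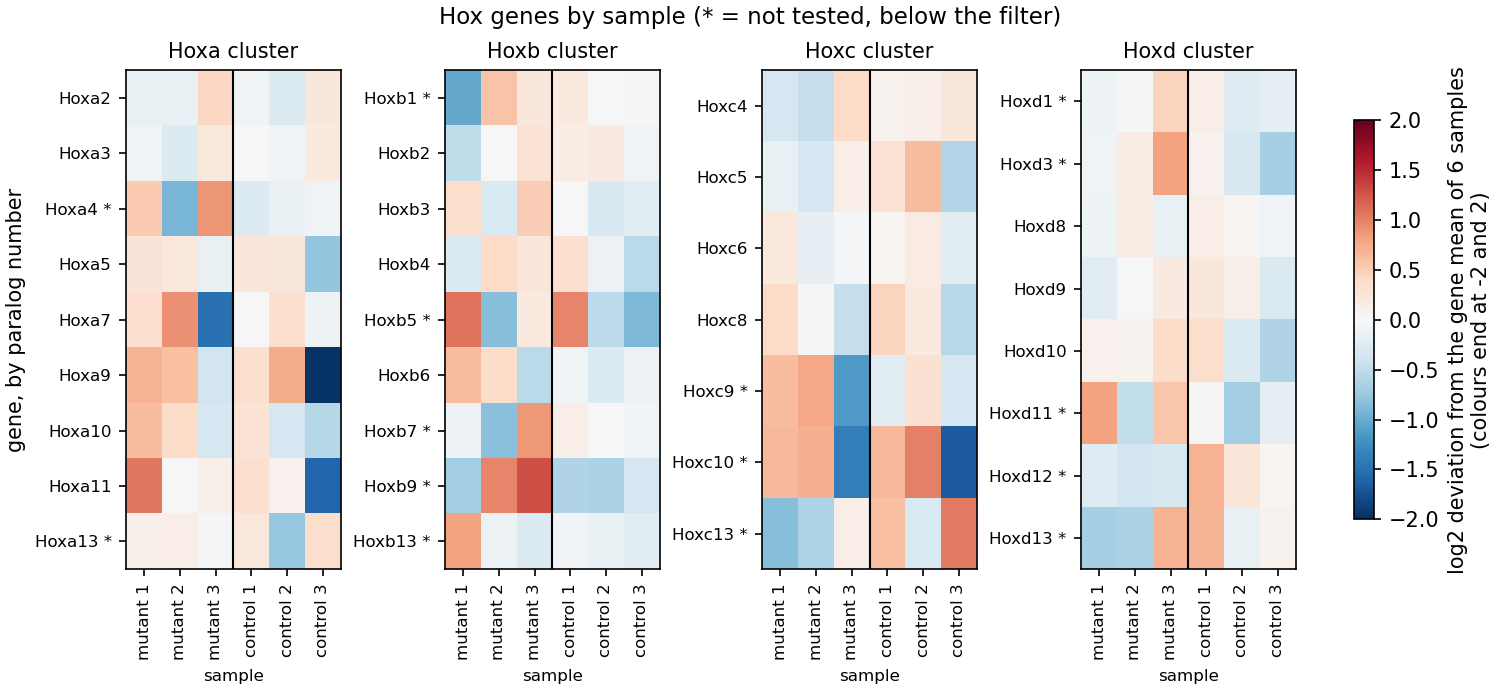
Log2 deviation of each sample from the gene's mean over 6 samples, for the 33 measured Hox genes in rows by cluster and paralog number and the 6 samples in columns, where an asterisk marks genes that were not tested. Blue cells for Hoxa9, Hoxa11 and Hoxc10 stand in control sample 3 and for Hoxa7, Hoxc9 and Hoxc10 in mutant sample 3.

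The tested posterior genes, of paralog groups 9 to 13, were lowest in control sample 3. Hoxa9, which patterns lumbar levels and the proximal limb, had signals of 858.7, 802.4 and 391.6 in mutant samples 1, 2 and 3. In control samples 1, 2 and 3 they were 653.7, 884.6 and 115.9. Sample 3 was thus the lowest of its group on both sides, and the lowest of the other 4 samples was 5.64-fold above control sample 3 and 1.67-fold above mutant sample 3. The groups overlapped, with means of 684 ± 255 and 551 ± 394 (SD, n = 3 each) and a log2 difference of 0.60 (SE 0.62, limma adjusted p of 1). The difference was -0.22 when control sample 3 was left out, 0.95 without mutant sample 3, 0.91 and 1.12 without control samples 1 and 2, and 0.06 with array weights. The other tested probe set of Hoxa9 did not show this pattern. It read 140.2, 192.0 and 197.6 in mutant and 253.2, 205.2 and 152.7 in control samples.

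Hoxa10, known for its roles in the lumbar region, the hindlimb and the uterus, read 230.1, 189.9 and 106.2 in mutant samples 1, 2 and 3 and 176.4, 106.9 and 86.96 in control samples 1, 2 and 3. Samples 3 were again the lowest 2 of the 6, with mutant sample 3 and control sample 2 nearly level. The log2 difference was 0.43 (SE 0.33, limma adjusted p of 1), and it ran from 0.22 when mutant sample 1 was left out to 0.70 when mutant sample 3 was. Mutant sample 1, in which the decidua and uterus markers were high, had the highest signal, and the part of those markers was not tested. The other, dim probe set of Hoxa10 was not tested and did not have samples 3 as its lowest 2. It read 29.53, 61.87 and 56.07 in the mutant and 21.15, 38.73 and 22.18 in the control samples.

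Hoxa11, a gene of the forearm, the kidney and the uterus, had the largest difference among the tested Hox genes. Its signals were 286.2, 126.6 and 138.9 in the mutant samples and 162.2, 135.8 and 25.49 in the control samples. Mutant sample 1 was the highest and control sample 3 the lowest, and the other 4 lay close together. The log2 difference was 0.79 (SE 0.51, limma adjusted p of 1), and it was 0.46 when mutant sample 1 was left out and 0.19 when control sample 3 was. The decidua and uterus markers were high in that same mutant sample, and their part in the result was not tested.

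In the Hoxd cluster, Hoxd9 read 394.1, 470.6 and 530.6 in the mutant and 549.4, 505.5 and 377.4 in the control samples. Hoxd10 read 138.0, 137.2 and 174.1 in the mutant and 171.4, 101.8 and 76.17 in the control samples. Control sample 3 was the lowest in both, while mutant sample 3 was the highest of its group in both. The log2 differences were -0.03 (SE 0.19) for Hoxd9 and 0.36 (SE 0.29) for Hoxd10. For Hoxd10 it was 0.14 when control sample 3 was left out and 0.62 when control sample 1 was, and for Hoxd9 it changed sign in some settings.

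Control sample 3 was therefore the lowest of the 6 samples in 5 of 5 tested genes of groups 9 to 13, and in 10 of all 18 tested Hox genes. It was the lowest in 12.9% of all probe sets tested. Without a filter it was the lowest in 6 of the 14 measured genes of groups 9 to 13 and in 13 of all 33, and the dim posterior genes Hoxa13 (72.22) and Hoxc13 (103.7) had their highest signal in that sample. The 5 genes share clusters, 3 in Hoxa and 2 in Hoxd, so they are not independent of each other.

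**Figure D3:**
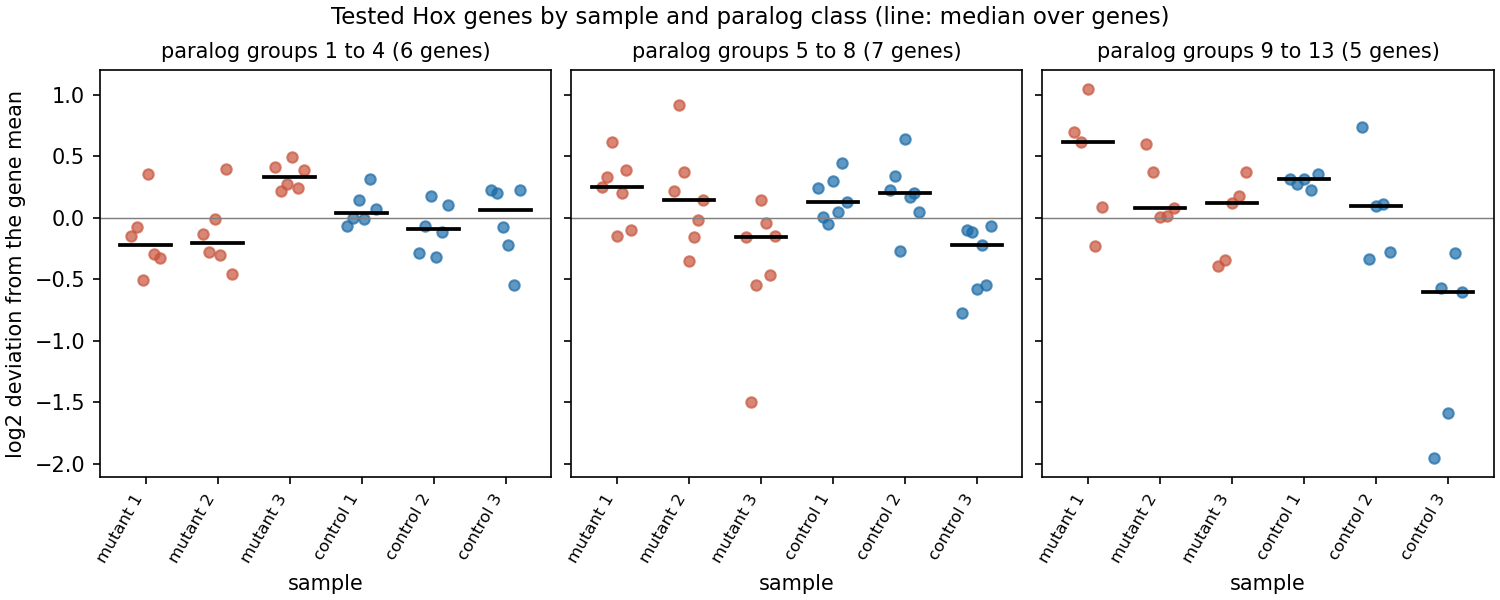
Log2 deviation from the gene's mean for each tested Hox gene (points) in each sample, in panels for paralog groups 1 to 4, 5 to 8 and 9 to 13, with the median over genes as a line. Mutant samples are red and control samples blue. In groups 9 to 13 the median of control sample 3 is -0.61 and that of mutant sample 1 is 0.62, and in groups 1 to 4 mutant sample 3 has the highest median, 0.33.

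Hoxc9 and Hoxc10, posterior genes of the Hoxc cluster that mark lower thoracic and lumbar levels, did not pass the filter on mean signal and have no test. Hoxc10 read 180.5, 192.9 and 25.73 in mutant samples 1, 2 and 3 and 180.5, 238.2 and 16.83 in control samples 1, 2 and 3. Sample 3 of each group thus lay near the pseudocount of 24.48 while the other 4 samples lay at 180.5 or above. No fold is given against signals that low. Hoxc9 read 181.8, 205.2 and 37.0 in the mutant and 92.5, 142.0 and 82.06 in the control samples, and samples 3 were again the lowest 2. The log2 differences between the groups were 0.0027 for Hoxc10 and 0.16 for Hoxc9.

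The middle genes gave part of the same picture. Hoxa5, which patterns the lower neck and upper thorax and is needed for the lung, read 363.3, 353.6 and 268.4 in mutant samples 1, 2 and 3. In control samples 1, 2 and 3 it read 361.3, 355.9 and 166.2. The samples 1 and 2 of both groups lay within 353.6 to 363.3, and both samples 3 lay below them. Hoxa7, a thoracic gene, read 186.7, 291.5 and 34.95 in the mutant and 143.3, 187.1 and 132.2 in the control samples, with mutant sample 3 far below the rest. Hoxc8, another thoracic gene, read 988.6, 740.8 and 536.8 in the mutant and 1032, 867.3 and 505.8 in the control samples, again with both samples 3 lowest. The log2 differences were 0.21 (SE 0.29) for Hoxa5, -0.16 (SE 0.53) for Hoxa7 and -0.07 (SE 0.29) for Hoxc8. The sign of each turned with single samples, and that of Hoxa7 was 0.54 without mutant sample 3. The other tested probe set of Hoxa5 read 223.7, 297.3 and 284.0 in the mutant and 361.9, 286.2 and 281.5 in the control samples, and its samples 3 were not the lowest.

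**Figure D4:**
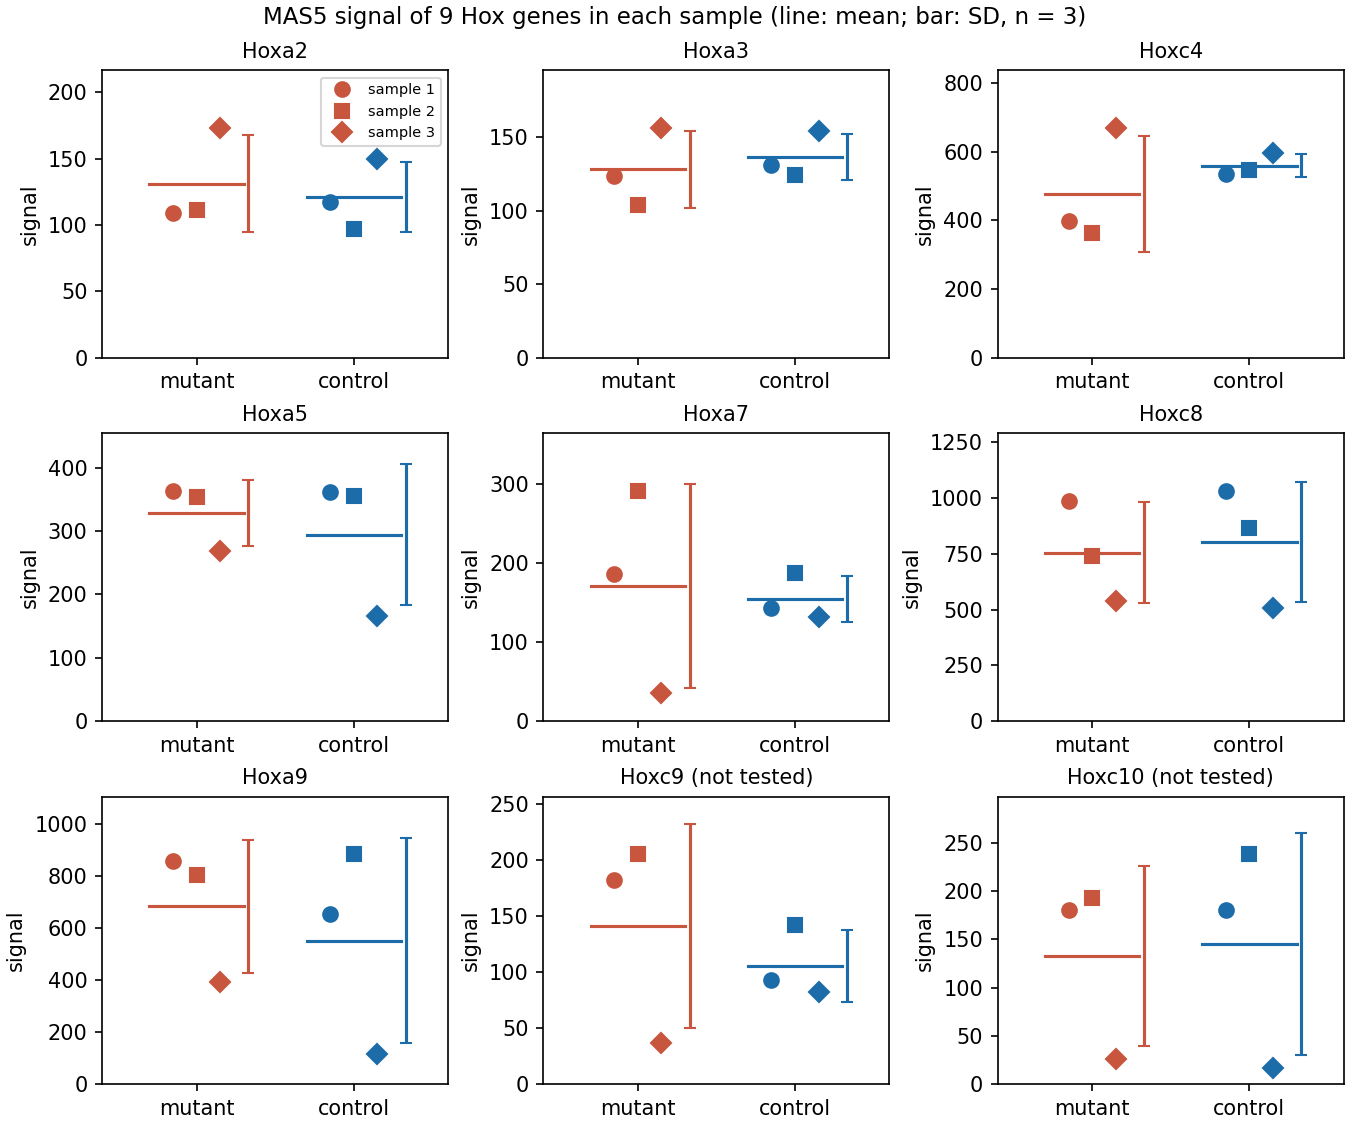
MAS5 signal of 9 Hox genes in each sample on linear axes from 0, by group (mutant red, control blue), with circles, squares and diamonds for samples 1, 2 and 3, a line for the mean and a bar for the SD (n = 3). Diamonds are the lowest of each group in Hoxa5, Hoxa7, Hoxc8, Hoxa9, Hoxc9 and Hoxc10, and the highest of each group in Hoxa2, Hoxa3 and Hoxc4.

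Hoxb6, a thoracic gene of the Hoxb cluster, differed from these. It read 323.2, 269.5 and 130.9 in the mutant and 194.0, 164.0 and 184.4 in the control samples, so that mutant sample 3 was the lowest and the control samples lay close together. Its log2 difference of 0.30 (SE 0.30) was 0.64 without mutant sample 3, 0.06 without mutant sample 1 and -0.19 with array weights. Hoxc5, a gene of neck and upper trunk, read 230.5, 196.8 and 286.2 in the mutant and 321.4, 414.7 and 164.0 in the control samples, with a log2 difference of -0.24 (SE 0.31). Control sample 3 was the lowest there, and mutant sample 3 the highest of its group. Hoxc6 read 329.4 to 431.1 in mutant and 315.1 to 421.0 in control samples, and Hoxd8 read 1570 to 1927 and 1668 to 1906. These probe sets varied little, with log2 differences of 0.0015 (SE 0.18) and -0.07 (SE 0.14), and control sample 3 was the lowest in Hoxc6. The 3 tested probe sets of Hoxc6 did not share a sign, 1 of the other 2 read 45.45 to 227.0 over the samples, and the other probe set of Hoxd8 read 521.0 to 1145.

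The anterior genes, of paralog groups 1 to 4, had their highest signals in mutant sample 3 in most cases. Hoxa2, which patterns the second pharyngeal arch and hindbrain, read 109.2, 111.3 and 173.2 in mutant samples 1, 2 and 3 and 117.2, 97.0 and 149.5 in control samples 1, 2 and 3. Hoxa3, a gene of the third pharyngeal arch, read 123.7, 103.9 and 156.3 in the mutant and 131.1, 124.5 and 154.4 in the control samples. Hoxc4, a gene of neck and upper trunk, read 398.3, 363.2 and 669.7 in the mutant and 534.3, 547.6 and 596.4 in the control samples. In these 3 genes both samples 3 were the highest 2 of the 6, by small margins in Hoxa3 and Hoxc4, a pair that was highest in 7.79% of all probe sets tested. The log2 differences were 0.09 (SE 0.27), -0.09 (SE 0.24) and -0.27 (SE 0.23), and that of Hoxc4 was -0.53 without mutant sample 3.

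By the probe sets used, the anterior Hoxb genes did not have control sample 3 among their highest 2 samples. Hoxb2 read 336.4, 483.9 and 592.7 in the mutant and 539.9, 552.6 and 462.5 in the control samples. Hoxb3 read 756.9, 470.4 and 834.7 in the mutant and 583.4, 466.1 and 498.7 in the control samples. Hoxb4 read 173.3, 293.9 and 262.3 in the mutant and 276.8, 198.8 and 141.7 in the control samples. Mutant sample 3 was the highest of all samples in Hoxb2 and Hoxb3, mutant sample 2 was the highest in Hoxb4, and control sample 3 was the lowest in Hoxb4. The log2 differences were -0.16 (SE 0.21), 0.36 (SE 0.22) and 0.23 (SE 0.28). Hoxb3 had the smallest unadjusted p of the tested Hox genes, 0.138. Its difference was 0.61 when mutant sample 2 was left out and 0.21 when mutant sample 3 was. The other tested probe set of Hoxb3 had the other sign (-0.12) and another order of samples. It read 197.0, 98.76 and 193.9 in the mutant and 118.9, 182.7 and 233.4 in the control samples, with control sample 3 highest. The other, dim probe set of Hoxb4 read 91.51, 146.8 and 129.9 in the mutant and 57.42, 46.52 and 57.09 in the control samples, with no overlap between the groups, and it was not tested. Among the probe sets tested, groups did not overlap in 8.33%.

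Mutant sample 3 was the highest sample in 5 of the 6 tested genes of groups 1 to 4, in 4 after quantile normalization and in 3 after median centring. It was the highest in 14.7% of all probe sets tested. Samples 3 of both groups were the lowest 2 in 5 tested Hox genes, namely Hoxa5, Hoxa7, Hoxa9, Hoxa10 and Hoxc8, against 4.96% of all probe sets tested. Without a filter they were the lowest 2 in 8 of the 33 genes, the others being Hoxb13, Hoxc9 and Hoxc10. Among the tested Hox genes, the lowest 2 were control sample 3 and mutant sample 1 in 3, and control sample 3 and mutant sample 2 in 3. Those pairs were the lowest 2 in 7.58% and 7.56% of all probe sets tested. Hoxa2, Hoxa3 and Hoxc4 of the Hoxa and Hoxc clusters were thus highest in samples 3. In the same samples Hoxa5, Hoxa9, Hoxc8 and Hoxc10 were lowest, and the labels place these samples in different groups. These genes were picked after their values were seen, and others of these clusters differed. Hoxa11, Hoxc5 and Hoxc6 did not have both samples 3 lowest, and Hoxc13 was highest in control sample 3. The other tested probe sets of Hoxa5 and Hoxa9 correlated with those used at 0.06 and 0.32 over the samples. The other tested probe set of Hoxb3 was highest in control sample 3 (233.4). The untested probe sets of Hoxa3 were highest in mutant sample 1 (139.3), 2 (63.19) or 3 (41.38).

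The bases before the start sites of Hoxa genes with these patterns are shown because the genes lie in 1 cluster and differ in whether samples 3 were high or low. The sequence before Hoxd9 is shown because it held the most matches to the AP-2 core among the Hox genes. Each line gives the 250 bases before an annotated start, 5′ to 3′ on the strand of the gene, from RefSeq on GRCm38.p6. Capitals mark the AP-2 core GCCNNNGGC, which reads the same on both strands.
Hoxa2 (chr6:52164832-52165081, minus strand): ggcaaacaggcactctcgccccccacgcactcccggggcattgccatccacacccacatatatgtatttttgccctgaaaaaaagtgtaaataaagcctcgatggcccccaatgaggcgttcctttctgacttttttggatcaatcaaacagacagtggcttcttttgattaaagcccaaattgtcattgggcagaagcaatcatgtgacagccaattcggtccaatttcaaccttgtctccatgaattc
Hoxa3 (chr6:52213068-52213317, minus strand): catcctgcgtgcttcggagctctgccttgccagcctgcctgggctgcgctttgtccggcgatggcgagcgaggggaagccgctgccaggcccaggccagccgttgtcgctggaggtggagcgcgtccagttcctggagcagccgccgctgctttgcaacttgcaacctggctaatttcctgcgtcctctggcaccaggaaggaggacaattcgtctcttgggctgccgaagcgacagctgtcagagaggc
Hoxa5 (chr6:52204588-52204837, minus strand): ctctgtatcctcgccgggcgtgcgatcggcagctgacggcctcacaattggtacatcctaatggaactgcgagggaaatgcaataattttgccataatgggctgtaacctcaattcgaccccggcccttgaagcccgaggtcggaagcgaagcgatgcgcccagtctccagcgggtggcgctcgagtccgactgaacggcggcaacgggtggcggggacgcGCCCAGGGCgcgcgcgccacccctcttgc
Hoxa7 (chr6:52218574-52218823, minus strand): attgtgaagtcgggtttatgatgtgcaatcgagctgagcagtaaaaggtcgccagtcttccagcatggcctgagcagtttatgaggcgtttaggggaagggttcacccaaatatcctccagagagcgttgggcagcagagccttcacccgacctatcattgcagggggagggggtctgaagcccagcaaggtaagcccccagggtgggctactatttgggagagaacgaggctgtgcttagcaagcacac
Hoxa9 (chr6:52227371-52227620, minus strand): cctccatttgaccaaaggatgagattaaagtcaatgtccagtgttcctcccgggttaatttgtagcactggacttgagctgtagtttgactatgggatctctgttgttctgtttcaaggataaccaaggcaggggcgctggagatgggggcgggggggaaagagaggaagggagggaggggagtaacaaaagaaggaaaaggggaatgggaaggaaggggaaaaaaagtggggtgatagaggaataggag
Hoxd9 (chr2:74697513-74697762, plus strand): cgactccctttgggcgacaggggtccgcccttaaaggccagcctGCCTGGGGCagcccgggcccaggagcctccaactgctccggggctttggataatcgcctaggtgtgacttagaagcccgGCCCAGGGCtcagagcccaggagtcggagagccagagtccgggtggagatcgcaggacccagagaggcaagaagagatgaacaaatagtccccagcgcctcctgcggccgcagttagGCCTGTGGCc

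The table of start sites held 19 of the 33 measured genes. The AP-2 core occurred once before Hoxa5, 29 bases before the start, at 206, 127 and 10 bases before the start of Hoxd9, and nowhere in the other 4 sequences shown. Over all 24 Hox sequences it occurred in 5 (20.8%), and over all 32851 sequences of that length in 13.7%. The Hox-Pbx motif TGATTNAT, searched on both strands, occurred before Hoxa2 and in 2 of the 24 Hox sequences (8.33%), against 2.82% of all. A match is a match of letters and not a measured site. The AP-2 core also occurred before Hoxa13, Hoxb1 and Hoxd13, which did not pass the filter and were not tested. Hoxa5 and Hoxd9, the tested genes that held the core, had differences of 0.21 and -0.03 between mutant and control skin, and neither passed the test.

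The 15 genes below the filter were dim throughout or in some samples. Hoxa4 read 18.0 to 123.8, Hoxa13 20.44 to 72.22, Hoxb1 4.79 to 64.28, Hoxb5 8.06 to 104.8 and Hoxb7 6.70 to 77.03. Hoxb9 read 8.99, 81.34 and 106.9 in mutant samples 1, 2 and 3 and 10.78, 10.24 and 17.89 in control samples, so mutant samples 2 and 3 stood above the rest. Hoxd1 read 38.48 to 77.8, Hoxd11 17.43 to 92.38 and Hoxd13 11.96 to 68.89. Hoxd3 read 90.78, 109.9 and 186.8 in the mutant and 104.0, 72.95 and 52.31 in the control samples, with mutant sample 3 highest and control sample 3 lowest.

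Genes of groups 12 and 13 mark the end of the body axis and the tips of the limbs. Hoxb13, a gene of the tail and the urogenital tract, read 34.18 in mutant sample 1 and 3.38 to 7.84 in the other samples, and that value was still below the filter. Hoxc13, which controls hair and nail keratins, read 10.05, 16.35 and 44.37 in the mutant and 70.3, 25.91 and 103.7 in the control samples, where the groups overlapped. Mutant and control groups did not overlap in 8.33% of the probe sets tested, and the share among untested probe sets was not counted. Hoxd12 was the 1 untested gene whose groups did not overlap, with 7.15, 4.61 and 5.82 in the mutant and 37.06, 20.59 and 14.61 in the control samples. With no filter on dim probe sets, its log2 difference was -0.65 with an unadjusted p of 0.0351 and a limma adjusted p of 1, and its signals lay around or below the 20th percentile of all values. None of the 33 genes passed an adjusted p of 0.05 in that fit.

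No cofactor of Hox proteins passed the test. None of 7 tested members of the list passed the threshold in either direction, with 5 positive and 2 negative differences and a median of 0.20. Pbx3, which binds DNA beside Hox proteins, read 969.7, 880.5 and 949.4 in the mutant and 809.6, 798.7 and 819.8 in the control samples. Its groups did not overlap, which held for 8.33% of all probe sets tested. Its log2 difference was 0.20 (SE 0.13, limma adjusted p of 1). Pbx2 differed by 0.16, Meis3 by 0.21, Meis2 by 0.21, Pknox2 by 0.31, Meis1 by -0.08 and Pknox1 by -0.17, and none passed. Samples 3 were the lowest 2 in 1 of the 7 tested members, against 4.96% of all probe sets tested. That was Pknox1, with 585.9 in mutant sample 3, 683.3 in control sample 3 and 706.6 to 1053 in the others. Without mutant sample 1 the difference was 0.03 for Meis2 and -0.05 for Pknox2. The median of the list was 0.03 without mutant sample 1, 0.12 without mutant sample 3 and -0.08 without probe sets named _s_at, _x_at or _a_at.

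No gene of the list of Hox regulators passed either. Of 12 tested members none passed, with 4 positive and 8 negative differences and a median of -0.11. It shrank to -0.01 when mutant sample 1 was left out, to -0.06 when control sample 1 was, and to -0.02 when no filter was set. Ezh2, the methyltransferase of the Polycomb complex that keeps Hox genes silent, differed by -0.34 (SE 0.17, limma adjusted p of 1), with 1590, 1882 and 2405 in the mutant and 2545, 2563 and 2250 in the control samples. It was -0.20 without mutant sample 1. Ctcf, the insulator protein, differed by -0.22, and Cbx2, another Polycomb protein, by -0.29, which was -0.04 without mutant sample 1. Eed differed by 0.15, and its groups did not overlap, as in 8.33% of all probe sets tested. The Cdx genes, which switch on middle and posterior Hox genes in the early embryo, did not pass the filter, and none of the 3 had a signal above 46.13.

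Other genes of regional identity were measured to set the Hox pattern beside them. None of 10 tested members passed, with 7 positive and 3 negative differences and a median of 0.29 that was -0.04 without a filter and -0.05 when all probe sets of each gene were averaged. It was 0.16, 0.18 and 0.19 when mutant sample 3, control sample 1 and control sample 2 were left out in turn. Emx2, a homeobox gene of the shoulder region and the urogenital tract, differed by 0.71 (SE 0.34, limma adjusted p of 1). It read 527.6, 225.4 and 237.2 in the mutant and 120.2, 222.5 and 206.3 in the control samples, with no overlap by a small margin. That held for 8.33% of all probe sets tested. Mutant sample 1, in which the decidua and uterus markers were high, was the highest and control sample 1 the lowest, and the difference was 0.34 and 0.47 with each of them left out. The part of those markers in it was not tested. Tbx18, which marks dermal papilla and trunk mesenchyme, differed by 0.32 and Dlx5, a gene of the face and limb, by 0.40. Tbx15, which patterns the dorsal and ventral skin, read 1015, 1067 and 1284 in the mutant and 1281, 1083 and 1614 in the control samples, with sample 3 the highest of each group. The limb identity genes Tbx5, Tbx4 and Pitx1 did not pass the filter. Control sample 3 was the lowest sample in none of the 10 genes and mutant sample 3 the highest in 4. No tested gene of this list had samples 3 as its lowest 2. En1, which did not pass the filter, did. It read 39.77 in mutant sample 3 and 66.73 in control sample 3, against 90.93 to 125.3 in the other samples.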

How the data were processed

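RNA of 6 skin samples was labelled with biotin and hybridised to Affymetrix arrays, per the labels' protocols. The authors deposited MAS5 signals, a linear intensity per probe set, and MAS5 is named without a version in the submitters' processing notes. Each array had a mean of 500 once 2% was trimmed from both ends. The 64 control probe sets were left out. Gene symbols came from GEO's platform annotation, updated by gene identifier to RefSeq (GRCm38.p6).

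Differences were fitted by limma (version 3.58.1, run in R version 4.3.3) with two-sided tests and a variance trend on the mean. The fit used log2(signal + 24.48) for 22518 probe sets, with Benjamini-Hochberg adjustment over all of them. It was also run on simulated data with independent normal noise and known shifts. That run was required only to return the shifts on average, so it does not show how the tests perform on these arrays. A list is described by counts and medians only. Values are given for the 3 tested genes of smallest p and the largest difference in each cluster, and for Hox genes that passed the test or had 1 sample above the filter signal and over 4-fold above the rest, of which there were none, and other genes were named after their values were seen. The members, lists and settings were chosen with earlier results of these data known. Other settings were pseudocounts, filters, normalizations, variance models, array weights, the replicate number as a block, samples left out, other choices of probe set and an adjusted p under 0.1. The number of arrays limits the precision. Figures were drawn with matplotlib 3.10.9.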

Additional observations from a re-analysis of the deposited data

How the results depend on the processing

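No Hox gene passed an adjusted p of 0.05 in limma with all samples or in any of the 19 other settings. At an unadjusted p under 0.05 there were at most 2 Hox genes in a setting, and the lowest adjusted p of a Hox gene was 0.276 (Hoxb3, array weights). The number of all probe sets past the threshold was 0 with the filter at the 75th percentile, 106 with array weights, 1 to 39 with 1 sample left out, and 0 without sample 3 of both groups.

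In the fit with a replicate block 8 probe sets passed, and no Hox gene did. No label says that the replicate numbers pair the samples, so they were not taken to do so. Deviations of same-numbered samples from their group means correlated at -0.052, -0.073 and 0.115 over all probe sets tested. Those of the other pairs of a mutant and a control sample ran from -0.177 to 0.172. Over the 18 tested Hox genes the correlations of same-numbered samples were 0.378, 0.195 and 0.345. Those of the other pairs ran from -0.441 to 0.376, the latter for mutant sample 1 with control sample 2. The Hox values are descriptions over genes that share clusters. Deviations within a group of 3 are tied to each other, so the correlations do not decide whether samples were paired.

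The filter at the 75th percentile kept 4 Hox genes. It gave medians of 0.604 for Hoxa and 0.364 for groups 1 to 4. There, control sample 3 was lowest in 2 genes (1 in groups 9 to 13), mutant sample 3 highest in 1 gene of groups 1 to 4, and samples 3 the lowest 2 in 2 genes. Without a filter, mutant sample 3 was highest in 8 genes of groups 1 to 4 and samples 3 were the lowest 2 in 8 genes. After median centring mutant sample 3 was highest in 3 genes of groups 1 to 4. The median of the Hoxb genes was 0.137 to 0.394 with 1 sample left out, and 0.0698 without sample 3 of both groups.

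Of 304 gene values under other settings, 30 in 13 genes had the other sign, none past the threshold. The cause was not tested. With 1 sample left out, differences ran from -0.0973 to 0.223 for Hoxa2, -0.22 to 0.0269 for Hoxa3, -0.13 to 0.379 for Hoxa5, -0.661 to 0.544 for Hoxa7 and -0.224 to 1.12 for Hoxa9. They ran from -0.338 to 0.0494 for Hoxb2, -0.585 to 0.0251 for Hoxc5, -0.108 to 0.0877 for Hoxc6, -0.357 to 0.15 for Hoxc8 and -0.182 to 0.0789 for Hoxd9. With array weights, where mutant sample 3 had a weight of 3.13, they were 0.0884 for Hoxa3, 0.0933 for Hoxb2, -0.191 for Hoxb6, 0.0888 for Hoxc4, -0.0506 for Hoxc6 and 0.101 for Hoxd9. Without sample 3 of both groups, a setting chosen after seeing the data, they were -0.00063 for Hoxa5, 0.456 for Hoxa7, -0.0479 for Hoxb4 and -0.0871 for Hoxc6. Quantile normalization gave 0.00161 for Hoxd9 and median centring -0.00976 for Hoxc6. For Hoxc6 the mean over probe sets gave -0.106, and leaving out _s_at, _x_at and _a_at probe sets gave -0.196. The 15 genes under the filter have no test, and detection calls were not used.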
